A study of Mus musculus with 2 samples.

Results

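Fibroblasts of the aortic adventitia that carry *Pi16*, *Dpp4* or both were taken from single-cell libraries of the mouse abdominal aorta and described in control and aneurysmal tissue. The cells were chosen by their raw counts: at least 5 UMIs of *Dcn*, at least 1 of *Pdgfra*, at least 2 of *Pi16* and *Dpp4* together, at most 1 of *Pecam1* and *Cdh5* together, at most 1 of *Ptprc* and at most 2 of *Myh11*. A UMI (unique molecular identifier) marks 1 captured RNA molecule. The gate held 2120 of 35848 cells left by the cell filter (500 or more UMIs, 200 or more genes, mitochondrial UMIs below 20%), namely 645 of 11288 Control and 1475 of 24560 AngII+HS cells.

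All mice were 5-month-old male C57BL/6J mice with no engineered allele named in the labels. Control mice received saline, and AngII+HS mice received angiotensin II (AngII) at 1500 ng/kg/min from an implanted minipump with drinking water holding 0.9% NaCl and 0.2% KCl, both for 28 days. The design states that the tissue of 5 mice was pooled per condition, whereas a protocol text in the labels gives smaller numbers, so the number behind each pool is uncertain. The sources also differ on which segment of the abdominal aorta was taken, which the protocol text calls suprarenal. With 1 library per condition there was no replicate and no test, and every interval below covers counting error only (95%, exact). The members held 3436569 UMIs in the Control library (median 4834 per cell, 5th to 95th percentile 1534 to 10334) and 12421601 UMIs in the AngII+HS library (median 7168, 2846 to 18211). The barcode lists deposited with the 2 libraries shared 67 barcodes. The lists were exchanged between the samples, since each is named for the other condition and is as long as the other library's matrix. The matrices and gene lists are named for the condition of the sample they are recorded under, and the lists were used only to count shared barcodes.

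As background, the adventitia is the outer coat of the artery, and *Pi16* and *Dpp4* are known from many mouse tissues as markers of a fibroblast state found near vessels and in fascia. *Pi16* encodes a secreted peptidase inhibitor-like protein and *Dpp4* a membrane dipeptidase that trims chemokines and hormones. Such cells are thought of as a reserve from which more specialised fibroblasts arise, and they share genes for matrix microfibrils and for binding of growth factors and complement. Activated fibroblasts of injured tissue instead make large amounts of fibrillar collagen, periostin and osteopontin.

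The label was carried almost wholly by *Pi16*. Every Control member held a *Pi16* UMI, and in 598 of 645 it was the only one of the pair. In the AngII+HS library 1473 of 1475 members held *Pi16*, and 1428 held *Pi16* alone. *Dpp4* was found in 47 members of each library, which is 7.29% (95% interval 5.40 to 9.57) of Control and 3.19% (2.35 to 4.21) of AngII+HS members. Lymphocytes, used as a background class, held a *Dpp4* UMI in 18.9% of Control and 9.33% of AngII+HS cells at median depths of 4468 and 2782 UMIs, although T cells are known to make the enzyme. The members are therefore best read as *Pi16* fibroblasts. *Clec3b*, which encodes tetranectin and was no part of the gate, was found in 82.5% (79.3 to 85.3) of Control and 57.0% (54.4 to 59.6) of AngII+HS members, against 4.90% and 2.65% of lymphocytes.

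The rule used the *Pi16*, *Dpp4*, *Dcn* and *Pdgfra* counts, whose values are given as a description. Summed over members, *Pi16* stood at 1535 CPM (UMIs per 1000000 UMIs of the members) in Control and 766 in AngII+HS, *Dpp4* at 32.0 and 5.72, *Dcn* at 9976 and 8298, and *Pdgfra* at 525 and 293. Just inside the gate, 182 Control and 342 AngII+HS cells held 2 UMIs of the pair, and just outside it 268 and 552 fibroblasts held 1. *Clec3b* was higher just inside than just outside, at 1214 CPM (1138 to 1294) and 986 CPM (926 to 1048) in Control and at 301 CPM (280 to 324) and 215 CPM (201 to 231) in AngII+HS. Members with 3 UMIs were below those with 2, at 1087 CPM (994 to 1186) in Control and 243 CPM (221 to 267) in AngII+HS. Members with 4 or more UMIs had 2262 CPM of *Clec3b* in Control (370 cells) and 391 CPM in AngII+HS (894 cells).

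The share of members depended on sequencing depth. Members made up 5.71% (5.29 to 6.16) of Control and 6.01% (5.71 to 6.31) of AngII+HS cells, and 43.1% (40.6 to 45.7) and 46.1% (44.4 to 47.8) of fibroblasts passing the other parts of the gate. Those intervals overlapped. AngII+HS members were deeper, however, and a deeper cell reaches 2 UMIs more easily. When every cell was first thinned to 2000 UMIs, 273 of the gated Control fibroblasts (31.5%) and 364 of the AngII+HS fibroblasts (21.2%) passed, so the AngII+HS share was then the lower one (log2 ratio -0.57). Fewer such cells and less *Pi16* RNA per cell cannot be told apart with this gate.

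Across the transcriptome, 6316 genes had a mean of at least 20 CPM over both libraries. Of these, 293 were at least 2-fold higher in AngII+HS members, which is 4.64% of the genes, and 365 were at least 2-fold lower, which is 5.78%. The median log2 ratio of AngII+HS over Control for all 6316 genes was -0.17. Scaling by TMM (trimmed mean of M-values) moved this median up by 0.27 and turned the split to 440 higher and 186 lower genes, so ratios are best read against the median. Of the 365 lower genes, 186 stayed at least 2-fold lower under that scaling, and ratios between -0.27 and 0 turn positive under it.

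**Figure D1:**
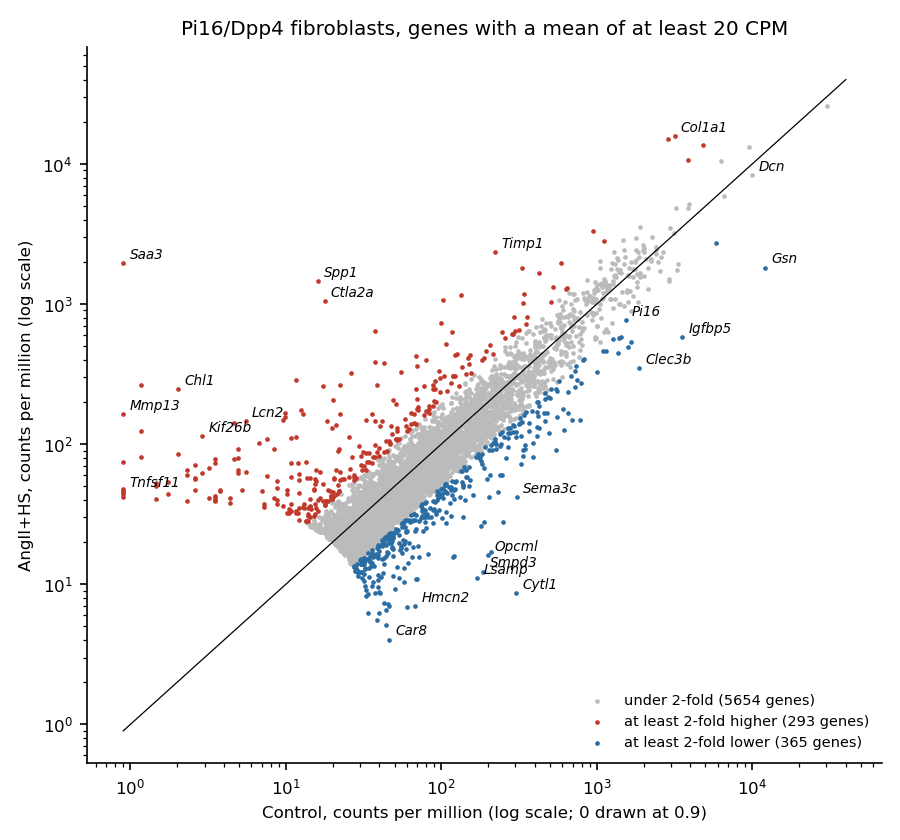
Summed CPM of each gene in Control (x axis) and AngII+HS members (y axis), both on log scales, for genes with a mean of at least 20 CPM and a unique symbol. The line marks equal levels, and red and blue points differ at least 2-fold. Among genes at least 2-fold above the lymphocyte level, *Saa3* (0 in Control, 1954 CPM in AngII+HS) lies farthest above the line. *Cytl1* (304 and 8.61 CPM) lies farthest below it.

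Genes of the *Pi16* fibroblast state were lower in AngII+HS members. Of 30 universal fibroblast genes listed, 26 passed the filter, of which 18 were at least 2-fold lower and 0 at least 2-fold higher, with a median log2 ratio of -1.67 against -0.17 for all genes. *Clec3b* was at 1866 CPM (1821 to 1912) in Control and 351 CPM (341 to 362) in AngII+HS, a log2 ratio of -2.41 (-2.46 to -2.35). *Igfbp5*, a binding protein of insulin-like growth factors, was at 3556 and 585 CPM (-2.60, -2.65 to -2.56). *Sema3c*, a secreted guidance cue, was at 306 and 41.8 CPM (-2.87). *Smpd3*, a neutral sphingomyelinase, had 186 CPM in Control and 12.3 CPM in AngII+HS (-3.92), and *Opcml*, a cell adhesion molecule of the immunoglobulin family, 199 and 16.1 CPM (-3.63). In each of these genes the 2 counting intervals were far apart. The microfibril gene *Mfap5* and the fibronectin gene *Fn1* of the same list were higher instead, at 1053 and 1818 CPM (0.79) and at 1292 and 2340 CPM (0.86).

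The difference was smaller at matched levels of *Pi16* and at matched depth. Among members with 400 to 1600 CPM of *Pi16* and *Dpp4* in both libraries (355 Control and 861 AngII+HS cells), 13 of 24 universal genes were at least 2-fold lower and the median was -1.08. Among members of 3000 to 8000 UMIs (423 and 763 cells), 13 of 26 were lower and the median was -0.94. Both selections were made after the main values were known.

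Some genes of other resident fibroblast states were lower as well. Among 16 measured parenchymal and committed fibroblast genes, 7 were at least 2-fold lower and 1 higher (median -0.65), although in members with both *Pi16* and *Dpp4* 4 were lower and 3 higher (median 0.24). *Gsn*, which encodes the actin-severing protein gelsolin, was the most abundant transcript of Control members after *Malat1* at 12129 CPM and stood at 1820.3 CPM in AngII+HS (-2.74, -2.76 to -2.71). *Inmt*, a methyltransferase, was at 181 and 26.2 CPM (-2.79), and lipoprotein lipase (*Lpl*) at 239 and 60.1 CPM (-1.99). *Cxcl14*, a chemokine, was the single gene of that list to be higher, at 11.6 and 285 CPM (4.61, 4.16 to 5.10), but 95% of its few Control UMIs came from 5 cells.

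Of all genes that were also clearly above the lymphocyte level, *Cytl1* had the lowest ratio. It encodes a small secreted protein known from cartilage and stood at 304 CPM (286 to 323) in Control and 8.61 CPM (7.06 to 10.4) in AngII+HS, a log2 ratio of -5.14 (-5.44 to -4.85). The adhesion molecule *Lsamp* (171 and 11.03 CPM, -3.95) came next, and the hedgehog-binding protein *Hhip* (208 and 16.9 CPM, -3.62) stood after *Smpd3* and *Opcml*. The neurotrophin receptor *Ntrk2* (119.9 and 15.9 CPM), the proprotein convertase *Pcsk6* (188 and 28.0 CPM), the hemicentin *Hmcn2* (67.8 and 7.004 CPM) and *Car8* (46.3 and 4.03 CPM) were of the same kind. For *Cytl1* the Control signal lay in few cells: 106 of 645 members held a UMI, 16.4% (13.7 to 19.5), against 52 of 1475 (3.53%) in AngII+HS.

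The highest ratios belonged to genes that were near 0 in Control members. *Saa3*, which encodes an acute-phase serum amyloid A protein, had 0 UMIs in 645 Control members. A floor of 3 counts corresponds to 0.873 CPM, and the exact interval allows up to 0.570% of members with a UMI. In AngII+HS it had 24269 UMIs, or 1954 CPM (1929 to 1979), a log2 ratio of at least 11.13. The collagenase *Mmp13* (0 and 165 CPM) and the osteoclast-activating cytokine *Tnfsf11* (0 and 46.5 CPM) were likewise without a Control UMI, with log2 ratios of at least 7.56 and 5.73. The adhesion molecule *Chl1* (2.04 and 247 CPM), the potassium channel *Kcnj15* (1.16 and 125 CPM) and the cysteine protease inhibitor-like *Ctla2a* (17.8 and 1045 CPM) had ratios of 6.92, 6.74 and 5.88. *Spp1*, which encodes osteopontin, was at 16.0 CPM (12.1 to 20.8) and 1449 CPM (1427 to 1470), a ratio of 6.5 (6.12 to 6.91).

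At equal depth these genes were each found in fewer members than not. At 2000 UMIs per cell, *Ctla2a* was found in 41.3% of AngII+HS and 1.89% of Control members, *Chl1* in 22.3% and 0%, *Saa3* in 18.3% and 0%, and *Mmp13* in 4.55% and 0%. Lymphocytes of the AngII+HS library held *Saa3* in 4.86%, *Chl1* in 2.39% and *Ctla2a* in 22.1% of cells at the same depth. *Spp1* was in 14.5% of AngII+HS members against 16.9% of AngII+HS lymphocytes, so its share of positive cells was no higher than the background. Of its UMIs in AngII+HS members, 46.2% lay in 5 cells, and without those cells and the 5 highest Control cells the levels were 785 and 3.22 CPM.

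The 47 Control and 45 AngII+HS members that held both *Pi16* and *Dpp4* differed from the rest in several of these genes. In them *Saa3* had 0 UMIs in Control and 7 UMIs, or 21.4 CPM, in AngII+HS, far under the 1954 CPM of all AngII+HS members, and *Kcnj15* had 0 and 4 UMIs. *Mmp13* had none in either library, whereas *Spp1* had 0 and 514 UMIs, the latter in 18 of 45 cells. *Chl1* was at 5.19 and 101 CPM and *Ctla2a* at 2.59 and 156 CPM. *Smpd3* (679.8 and 181 CPM), *Opcml* (431 and 144 CPM) and *Sema3c* (815 and 496 CPM) were higher in these cells than in all members of either library, and *Lsamp* had 2 UMIs in Control and 1 in AngII+HS.

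**Figure D2:**
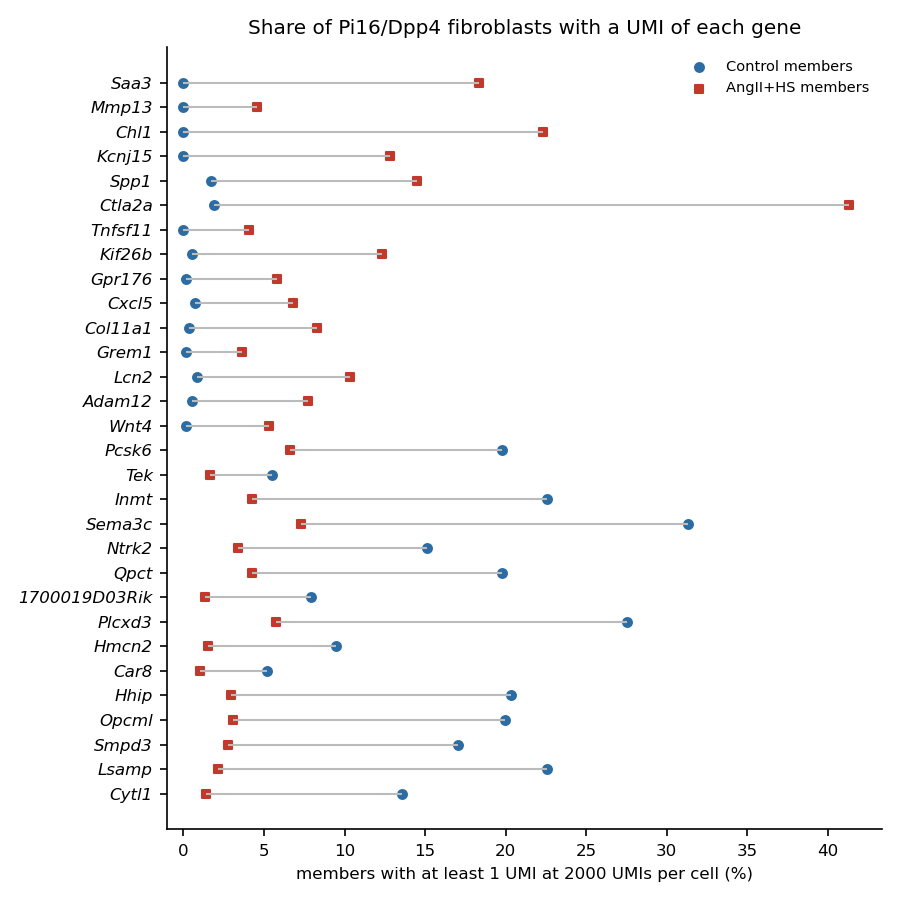
Share of members with at least 1 UMI (x axis, percent) at 2000 UMIs per cell, for the 15 genes at each end of the order of log2 ratios, sorted by that ratio. Blue circles are the 581 Control and red squares the 1450 AngII+HS members deep enough to be thinned; *Ctla2a* reached 41.3% in AngII+HS, and *Lsamp* was in 22.5% of Control and 2.14% of AngII+HS members.

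Promoters of 6 genes from both ends of the order were read from RefSeq (GRCm38.p6), as the 250 bases before the annotated start on the coding strand. They were taken because these genes are among those that differ most between the conditions. *Smpd3*, which lies between *Lsamp* and *Opcml* in the order, is not among the 6. The windows are *Saa3* at chr7:46715677-46715926 (minus strand), *Mmp13* at chr9:7272264-7272513 (plus), *Chl1* at chr6:103510626-103510875 (plus) and *Cytl1* at chr5:37735269-37735518 (plus). Capitals mark matches, on either strand, to TGANTCA (bound by AP-1), GAAANNGAA (an interferon response element core) or TATAAA.
Saa3: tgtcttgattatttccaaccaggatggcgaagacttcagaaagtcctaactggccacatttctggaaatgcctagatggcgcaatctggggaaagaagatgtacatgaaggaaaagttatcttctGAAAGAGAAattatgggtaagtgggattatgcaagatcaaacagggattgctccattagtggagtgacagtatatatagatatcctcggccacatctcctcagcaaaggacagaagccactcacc
Mmp13: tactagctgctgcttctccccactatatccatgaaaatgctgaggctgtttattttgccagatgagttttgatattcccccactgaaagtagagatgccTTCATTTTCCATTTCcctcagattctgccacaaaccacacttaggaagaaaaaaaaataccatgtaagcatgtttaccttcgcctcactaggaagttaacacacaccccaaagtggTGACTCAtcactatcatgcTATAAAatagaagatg
Chl1: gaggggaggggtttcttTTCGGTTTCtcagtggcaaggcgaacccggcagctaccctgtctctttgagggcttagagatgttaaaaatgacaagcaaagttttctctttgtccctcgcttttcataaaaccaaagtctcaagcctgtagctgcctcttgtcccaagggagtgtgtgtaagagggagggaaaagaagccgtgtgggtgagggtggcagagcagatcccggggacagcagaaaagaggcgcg
Cytl1: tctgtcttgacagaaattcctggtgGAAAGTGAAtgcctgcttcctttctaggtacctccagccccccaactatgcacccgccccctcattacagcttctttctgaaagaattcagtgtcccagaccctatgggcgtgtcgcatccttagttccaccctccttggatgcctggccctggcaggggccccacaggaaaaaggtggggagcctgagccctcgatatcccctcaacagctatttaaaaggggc
The *Mmp13* window holds TGANTCA 35 to 29 bases and TATAAA 16 to 11 bases before the start, and 2 overlapping minus-strand matches to GAAANNGAA. *Saa3*, *Chl1* and *Cytl1* each hold 1 match to GAAANNGAA, and the windows of *Lsamp* and *Opcml*, searched in the same way and not printed, hold none of the 3 motifs. Of 32851 promoters of the same length, 6.75% hold TGANTCA, 7.13% GAAANNGAA and 12.4% TATAAA. A match of letters is a description of the sequence and was not tied to binding.

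Genes of activated fibroblasts were higher in AngII+HS members. Of 23 matrix-activated genes past the filter, 17 were at least 2-fold higher and 2 lower, with a median of 2.17. The protease inhibitor *Timp1* was at 223 CPM (207 to 239) in Control and 2357 CPM (2330 to 2384) in AngII+HS, a ratio of 3.40. *Sfrp1*, a secreted Wnt antagonist, was at 102 and 1071 CPM (3.39), the kinesin *Kif26b* at 2.91 and 115 CPM (5.30), and the BMP antagonist *Grem1* at 1.45 and 40.5 CPM (4.80). The proteoglycan *Aspn* was lower, at 412 and 113 CPM (-1.86). At least 2 UMIs of *Postn* and *Cthrc1* were found in 45 of 645 Control members (6.98%, 5.13 to 9.22) and 762 of 1475 AngII+HS members (51.7%, 49.1 to 54.2), so the AngII+HS gate overlaps widely with cells that carry the activated markers. With those cells left out of both libraries, a selection made after the data were seen, 12 of 20 matrix-activated genes were still at least 2-fold higher. Fibroblasts without *Pi16* or *Dpp4* reached at least 2 UMIs of *Postn* and *Cthrc1* in 23 of 582 Control (3.95%) and 507 of 1173 AngII+HS cells (43.2%). The AngII+HS cells were deeper in both classes, and these shares were not taken at equal depth.

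Among the gene groups, which share some genes, interstitial collagens had the largest difference in summed level. Of 14 genes, 9 were at least 2-fold higher and 1 lower (median 1.08), and their summed level was 13838 CPM in Control and 49538 CPM in AngII+HS. *Col1a1* was at 3165 CPM (3106 to 3225) and 15771 CPM (15702 to 15841), *Col3a1* at 2877 and 15038 CPM, and *Col1a2* at 4839 and 13667 CPM, with log2 ratios of 2.32, 2.39 and 1.498. Of the type VI chains, *Col6a5* was higher (8.73 and 54.3 CPM) and *Col6a6* lower (39.3 and 10.8 CPM). *Sparc*, a collagen-binding matricellular protein, was at 3844 and 10581 CPM (1.46). The collagen chaperone *Serpinh1* was nearly level at 1593 and 1612 CPM (0.02, -0.03 to 0.06), and of 15 collagen processing genes 3 were higher, among them the cross-linking enzymes *Plod2* (1.30) and *Loxl3* (1.21), and 1 lower, *Pcolce2* (697 and 149.7 CPM, -2.22).

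Other matrix groups were mixed. Of 16 elastic fiber genes, 2 were at least 2-fold higher, elastin itself (*Eln*, 426 and 1670.4 CPM, 1.97) and *Ltbp2* (55.3 and 326 CPM, 2.56), and 2 lower, *Ltbp1* (-1.52) and *Emilin2* (-1.11). By TMM 6 elastic fiber genes were higher and 1 lower, and in members with both *Pi16* and *Dpp4* 7 and 1. Among 9 small leucine-rich proteoglycans, which include *Dcn* of the gate, *Lum* was higher (1121 and 2800.0 CPM, 1.32), while 3 were lower, *Omd* at 45.7 and 7.25 CPM the most. Of 11 basement membrane genes, 1 was higher and 2 lower, the laminin chain *Lama2* (554 and 157 CPM, -1.82) and the linker *Nid1* (680 and 307 CPM, -1.15). Of 15 matrix proteases, 4 were higher and 2 lower, with *Mmp3* at 939 and 3348 CPM (1.83) and *Mmp2* at 294 and 806 CPM (1.46), and by TMM 5 were higher and 0 lower. Among members of 3000 to 8000 UMIs 1 of 15 was higher and 1 lower, and the median was 0.23 against -0.18. Of 11 protease inhibitors, 4 were higher and 0 lower, and *Serpina3n* was at 133 and 1153 CPM (3.11, 2.98 to 3.25). Of 19 matricellular genes, 9 were higher and 2 lower, with *Ccn3* at 37.5 and 645 CPM (4.10) and the tenascin *Tnxb* at 414 and 132 CPM (-1.65).

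**Figure D3:**
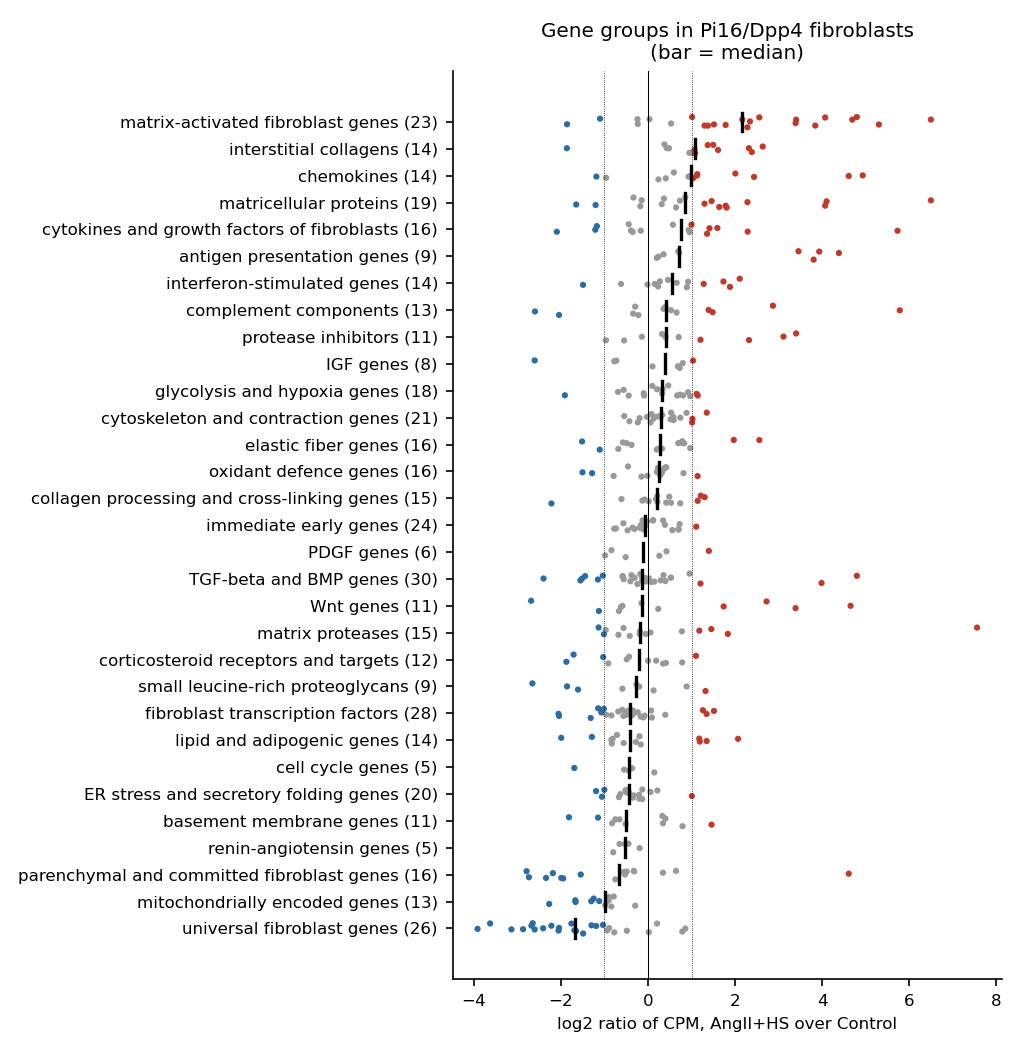
Log2 ratio of CPM in members, AngII+HS over Control (x axis), for every gene past the filter in the gene groups (y axis, number of genes in brackets; ribosomal protein and HOX genes are not drawn). Black bars are medians, dotted lines mark 2-fold, red and blue points lie beyond them; of the groups drawn, matrix-activated genes had the highest median (2.17) and universal fibroblast genes the lowest (-1.67).

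Genes for signals to leukocytes were higher in part. Of 14 chemokines, 7 were at least 2-fold higher and 1 lower (median 0.99). The neutrophil-attracting *Cxcl5* was at 4.66 and 142 CPM (4.93, 4.23 to 5.74), and the monocyte-attracting *Ccl2* at 1472 and 2841 CPM (0.95). The B-cell chemokine *Cxcl13* (125 and 54.7 CPM, -1.19) and the eosinophil chemokine *Ccl11* (366 and 188 CPM, -0.96) were on the other side. Of the *Cxcl13* UMIs, 56.5% in Control and 36.9% in AngII+HS lay in 5 cells. Without those cells its ratio was -0.65. With doublets removed 7 chemokines were higher and 0 lower, and with the gate at 2000 UMIs per cell 6 and 2 of 13. Of 16 cytokines and growth factors, 6 were higher and 3 lower (median 0.75), or 8 and 1 by TMM. The median turned below 0 with cells weighted equally (3 higher and 1 lower of 13, -0.09). It also did so among members of 3000 to 8000 UMIs (3 and 2 of 13, -0.07), without *Postn* and *Cthrc1* cells (-0.01) and with both *Pi16* and *Dpp4* required (-0.29). *Il6* was high in both libraries at 1028 and 916 CPM (-0.17), hepatocyte growth factor (*Hgf*) was higher (7.27 and 35.6 CPM), and *Csf1*, on which macrophages depend, was lower (551 and 238 CPM, -1.21).

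Complement genes differed in both directions, with 4 of 13 at least 2-fold higher and 2 lower. *C4b* was at 100.1 CPM (89.8 to 111) and 732 CPM (717 to 747), a ratio of 2.87, and *C7* at 547 and 90.5 CPM (-2.60). *Cfd* was at 0 and 48.1 CPM, but 82.6% of its UMIs came from 5 cells. Of 14 interferon-stimulated genes, 4 were higher and 1 lower, with *Ifit3* at 8.73 and 37.6 CPM (2.11) and *Irgm1* at 43.1 and 15.3 CPM (-1.49). Of 9 antigen presentation genes, the 4 past 2-fold belong to MHC class II, with *H2-Aa* at 6.69 and 102 CPM and *H2-Ab1* at 3.49 and 73.0 CPM. At 2000 UMIs *H2-Aa* was in 8.21% of AngII+HS members and 49.0% of lymphocytes. With free RNA subtracted, only 5 of the antigen presentation genes passed the filter and 0 were called (median 0.07). The class II calls were thus lost, and genes that no longer passed the filter were not compared. The class I genes *B2m* (0.72) and *H2-K1* (0.70) were under 2-fold.

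Receptors for the infused hormone were almost undetected. *Agtr1a*, the main AngII receptor of mouse vessels, had 18 UMIs in 14 Control members and 19 UMIs in 19 AngII+HS members, or 5.24 CPM (3.10 to 8.28) and 1.53 CPM (0.921 to 2.39). *Agtr1b* had 6 and 13 UMIs and *Agtr2* 2 and 2. *Mas1* had 0 and 1, which is under the floor of 3 counts. *Ren1* had 13 UMIs in each library, *Agt* 5 and 28, *Mme* 54 and 134 and *Enpep* 18 and 102. *Ace*, the converting enzyme, was well measured at 169.6 CPM (156 to 184) and 97.5 CPM (92.1 to 103), a ratio of -0.80, in 28.2% and 17.0% of members at 2000 UMIs against 0.704% and 1.48% of lymphocytes. The aminopeptidases *Anpep* (90.8 and 63.0 CPM) and *Lnpep* (163 and 104 CPM), *Atp6ap2* (159 and 116 CPM) and *Agtrap* (25.025 and 21.9 CPM) were under 2-fold, so 0 of the 5 genes past the filter were called in either direction. All 5 ratios were below 0, but that of *Agtrap* (-0.19) is smaller in size than the shift by TMM.

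Among hormone and growth factor pathways, corticosteroid targets were lower in 3 and higher in 1 of 12 genes. By TMM 2 were lower and 2 higher, and with cells weighted equally 2 were lower and 0 higher. *Tsc22d3*, which encodes GILZ, was at 260 and 79.6 CPM (-1.71) and *Zbtb16* at 159 and 43.5 CPM (-1.88), whereas *Sgk1* was at 92.5 and 199 CPM (1.10). Of 30 TGF-beta and BMP genes, 3 were higher and 6 lower (median -0.14), against 4 and 4 by TMM and 8 and 6 with free RNA subtracted. The activin subunit *Inhba* was at 9.89 and 157 CPM (3.99), and *Tgfbi* at 780.4 and 148 CPM (-2.40). Of 11 Wnt genes, 4 were higher and 2 lower. The antagonists *Sfrp1* and *Sfrp4* (589 and 1965 CPM, 1.74) and the ligand *Wnt4* (1.75 and 44.0 CPM) were higher, and the ligand *Wnt10b* was lower (39.9 and 6.199 CPM, -2.69). Of 8 IGF genes, 1 was higher (*Pappa*, 1.04) and 1 lower (*Igfbp5*), while *Igf1* itself was at 367 and 638 CPM (0.80). Of 6 PDGF genes, which include *Pdgfra* of the gate, *Pdgfa* was higher (32.9 and 86.6 CPM, 1.40) and none was at least 2-fold lower.

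Several other groups held calls in both directions, and some in 1 only. Of 24 immediate early genes, 1 was at least 2-fold higher, the heat shock gene *Hspa1a* (298 and 643 CPM), and 0 lower. Over all genes 4.64% were higher. With free RNA subtracted 6 of the 24 were higher, and 1 in the same without the member of each library richest in leukocyte markers. None was called with doublets removed, or in members without a UMI of *Pecam1*, *Cdh5*, *Ptprc* or *Myh11*. *Junb* was at 2491 and 2008 CPM. Of 20 ER folding genes, 1 was higher and 3 lower (median -0.44), with the chaperone *Hspa5* at 1501 and 965 CPM. By TMM none of them was lower (median -0.17). Glycolysis and hypoxia genes had 2 higher and 1 lower of 18, or 6 and 1 by TMM, with *Gapdh* at 183 and 398 CPM. Oxidant defence genes had 1 higher (*Gpx3*) and 2 lower of 16, and lipid genes 4 higher and 2 lower of 14, with *Apoe* at 519 and 1322 CPM. With free RNA subtracted the lipid genes had 0 higher and 6 lower of 12, or 1 and 3 of 11 without those members. Of 28 fibroblast transcription factors, 3 were higher, *Runx1* (152 and 436 CPM, 1.52) the most, and 6 lower, with *Creb5* (496 and 119 CPM, -2.06), *Ebf2* (247 and 60.0 CPM, -2.04) and *Ebf1* (1143 and 459 CPM, -1.32) among them, and by TMM 3 were higher and 3 lower. Of 20 cell cycle genes listed only 5 passed the filter, of which 0 were higher and 1 lower, the inhibitor *Cdkn1c* (89.0 and 27.5 CPM, -1.69). At a minimum of 5 CPM 11 passed, with 4 higher and 1 lower (median 0.14). Cytoskeletal genes had 3 higher and 0 lower of 21 (median 0.29), 9 of 17 higher with free RNA subtracted (7 of 18 without those members) and 0 of 21 among members of 3000 to 8000 UMIs. The 6 measured HOX genes were all under 2-fold. Of 13 mitochondrially encoded genes, 6 were at least 2-fold lower and all had ratios below 0 (median -0.98), whereas 2 were called with free RNA subtracted (median -0.27), 4 without those members (median -0.88), 9 at matched *Pi16* and *Dpp4* levels and 11 with cells weighted equally (median -1.09). Mitochondrially encoded RNA was also lower outside the members. Its sum was 25008 and 12557 CPM in fibroblasts without *Pi16* or *Dpp4*, with 9 of 13 genes at least 2-fold lower, and 28132 and 14371 CPM in lymphocytes. Over all filtered cells the median mitochondrial share was 3.60% in Control and 1.09% in AngII+HS, so the difference is no trait of the members alone. None of the 80 ribosomal protein genes was called, although 74 had ratios above 0 (median 0.30).

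Levels also differed with the amount of *Pi16*. Among Control members with 2, 3 and at least 4 UMIs of the pair, *Smpd3* stood at 36.1, 53.7 and 267 CPM and *Sema3c* at 101, 163 and 408 CPM. Among AngII+HS members of the same classes *Smpd3* was at 4.93, 4.89 and 16.2 CPM and *Sema3c* at 23.4, 27.7 and 50.4 CPM. Both genes were highest in the members with most *Pi16*, which were also the deepest. All gated fibroblasts, members or not, were therefore compared at equal depth. At 2000 UMIs per cell, Control fibroblasts with 0, 1 and at least 2 UMIs of the pair had *Clec3b* at 810, 1164 and 2444 CPM, and AngII+HS fibroblasts at 288, 337 and 688 CPM. *Smpd3* had 34.8, 75.4 and 219 CPM in the same classes of Control and 7.31, 8.06 and 35.1 CPM in those of AngII+HS. Both genes were thus highest in the class with most *Pi16* in either library. *Cytl1* had the other order in Control, at 580.4, 586 and 188 CPM. *Col1a1* differed little between classes, at 3150.0, 3198 and 3006 CPM in Control and 12314, 14626 and 12918 CPM in AngII+HS. *Gsn* was between 11981 and 13890.4 CPM in the Control and between 2382 and 3543 CPM in the AngII+HS classes. These values come from cells grouped by the gate's own genes and are a description.

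**Figure D4:**
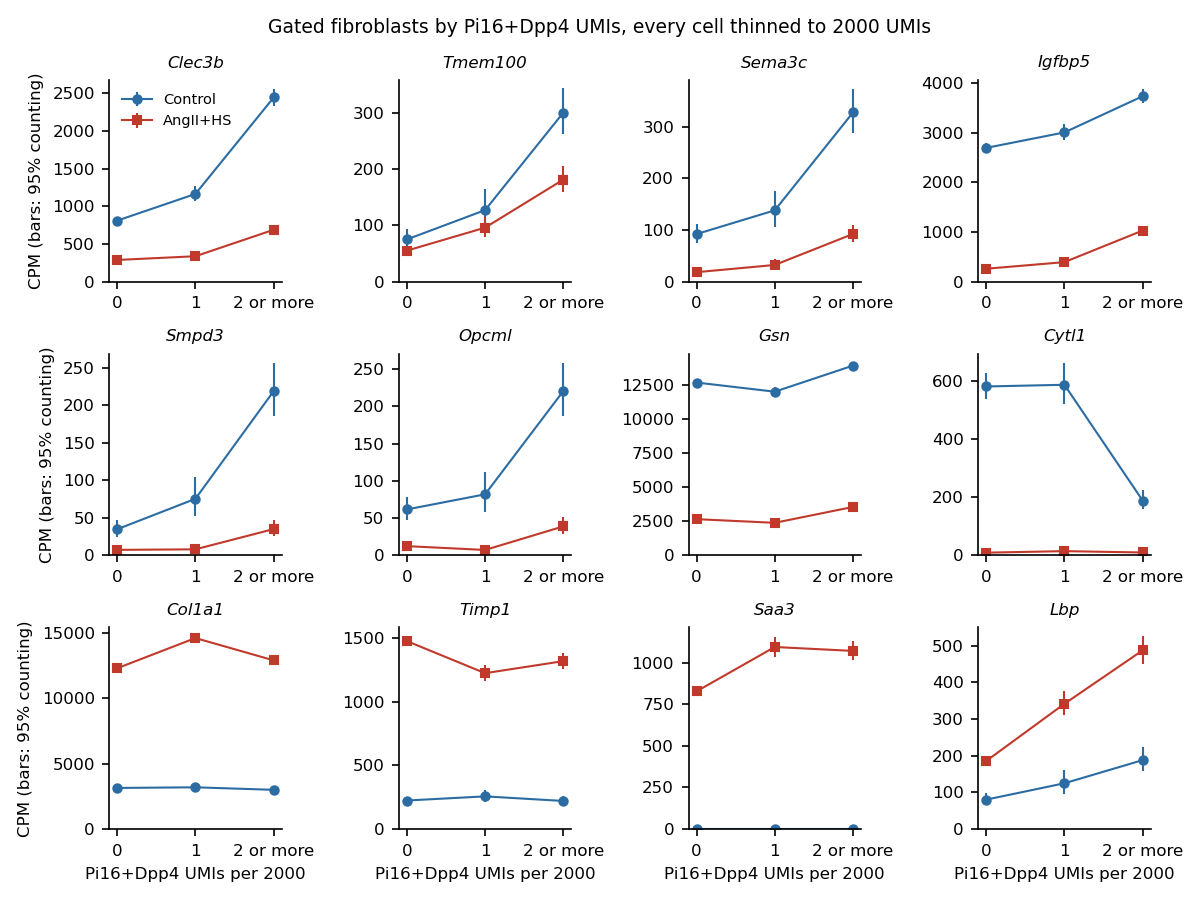
CPM (y axes, from 0) of 12 genes in gated fibroblasts thinned to 2000 UMIs, by *Pi16* and *Dpp4* UMIs left after thinning (x axes), in Control (blue circles; 560, 232 and 356 cells) and AngII+HS (red squares; 1779, 620 and 656 cells). Bars are 95% counting intervals; *Clec3b*, *Sema3c* and *Lbp* are higher in the classes with more *Pi16* in both libraries.

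Within the AngII+HS library, the 762 members with *Postn* and *Cthrc1* were deeper (median 8929 UMIs) than the other 713 (5768). They held *Spp1* at 2097 against 375 CPM, *Cxcl5* at 197 against 51.5 CPM and *Col1a1* at 18098 against 11923 CPM. *Gsn* was lower in them, at 1205 against 2839 CPM, as were *Clec3b* (297 and 442 CPM) and *Lsamp* (3.75 and 23.1 CPM). *Chl1* and *Ctla2a* were found in both subsets, at 270 and 209 CPM and at 1043 and 1048 CPM. The 713 cells, which held at most 1 UMI of the activated markers, stood at 2839 CPM of *Gsn* against 12560 CPM in the 600 Control members of the same kind, and at 11923 against 3159 CPM of *Col1a1*.

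Some genes were higher in members of both libraries than in the 582 Control and 1173 AngII+HS fibroblasts with no UMI of *Pi16* or *Dpp4*. The genes were picked for a high ratio in both libraries, so their agreement between libraries follows from the choice. The classes were split by the gate's own *Pi16* and *Dpp4* counts. No replicate stands behind these differences, and the other fibroblasts were shallower (medians 2968 and 5316 UMIs). *Wnt10b* was 4.01 higher on the log2 scale in Control and 2.30 higher in AngII+HS members, *Tek*, an angiopoietin receptor, 2.82 and 1.37, and *Esm1*, a secreted proteoglycan of endothelial cells, 2.15 and 3.45. *Sema3c* was 1.97 and 1.45 higher, *Tmem100* 2.30 and 1.56, the lipopolysaccharide-binding protein *Lbp* 1.47 and 2.01, and *Wnt2* 2.31 and 1.36. *Wnt10b* was nonetheless a gene of a minority, found in 85 of 645 Control and 66 of 1475 AngII+HS members. *Esm1* was concentrated, with 59.3% of its Control UMIs in 5 cells, and its ratio between conditions moved from 0.76 to 1.73 without the 5 highest cells of each library.

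Much of the difference between conditions was found in the other fibroblasts too. Of the 293 higher genes, 209 (71.3%) were at least 2-fold higher there as well, and of the 365 lower genes 173 (47.4%) were at least 2-fold lower. Over the 6311 genes with a ratio there, 4.91% were at least 2-fold higher and 4.07% at least 2-fold lower in the other fibroblasts, and the median of all genes was -0.04. Members and other fibroblasts came from the same 2 libraries. The median ratios in those cells were 1.44 for the higher and -0.98 for the lower genes, against 1.57 and -1.28 in members. A ratio of opposite sign was found for 8 of the higher and 14 of the lower genes. Genes whose ratios lay far apart included *Car8*, at -3.52 in members and -0.12 in other fibroblasts with few UMIs, *Tmem176a* (3.36 and 1.43), *Adam12* (4.69 and 1.71) and *Hp*, which encodes haptoglobin (3.63 and 5.87). *Dio2*, which activates thyroid hormone, was 142 and 195 CPM in members (0.45, 0.31 to 0.59) and 156 and 54.4 CPM in other fibroblasts (-1.52). *Cd55*, which protects cells from complement, was at 338 and 81.9 CPM in members (-2.04) and 16.3 and 27.5 CPM in the others (0.75). *Cd55* rested on few cells: 49.8% of its Control UMIs came from 5 members, without which and the 5 highest AngII+HS members the ratio was -1.23.

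**Figure D5:**
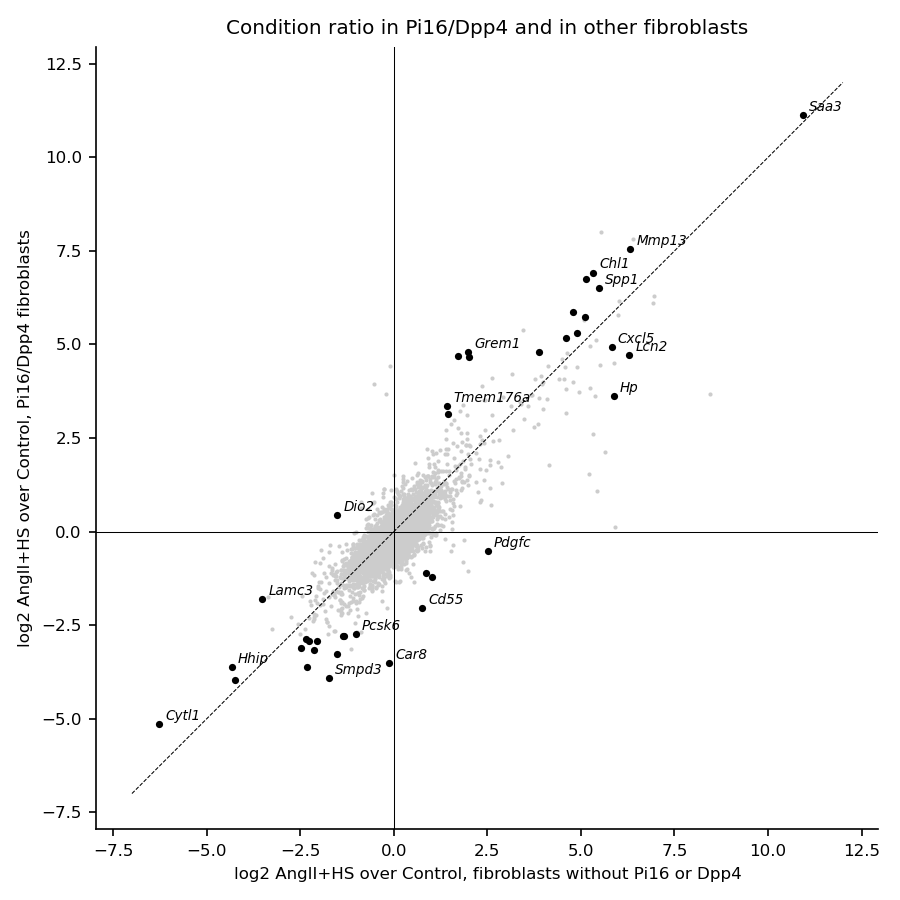
Log2 ratio of AngII+HS over Control for genes past the filter in fibroblasts without *Pi16* or *Dpp4* (x axis) and in members (y axis), with the genes of the highest and lowest ratios and of the widest gaps in black. Genes without a Control UMI are drawn at their lower bound. The dashed line marks equal ratios; *Saa3* and *Cytl1* lie at the ends of it, and *Dio2*, *Pdgfc* and *Cd55* lie in quadrants of opposite sign.

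Markers of other cell types were found in members at different levels. The sums for leukocytes, among others, were higher in AngII+HS. The 9 macrophage markers summed to 50.9 CPM in Control and 338 CPM in AngII+HS members, with *Lyz2* the most abundant, and the 7 neutrophil markers to 256 and 481 CPM, led by *S100a9*. In Control, 290 of the 305 *S100a9* UMIs came from 1 cell, and in AngII+HS the gene was in 30.4% of members against 28.9% of lymphocytes. T cell markers summed to 0.291 and 12.9 CPM, with 5 of 6 at 0 in Control, and B and plasma cell markers to 0.582 and 37.0 CPM, also with 5 of 6 at 0. The 8 endothelial markers summed to 31.1 and 28.3 CPM, the 8 smooth muscle markers to 583 and 515 CPM with *Acta2* leading, and the 6 pericyte markers to 426 and 655 CPM with *Abcc9* leading. Of 3 pericyte markers past the filter 2 were at least 2-fold higher. Their median ratio was 1.04 in members and -0.30 in fibroblasts without *Pi16* or *Dpp4*. Erythroid markers summed to 17.2 and 272 CPM, of which *Hbb-bs* had 92.7% of its AngII+HS UMIs in 5 cells. Schwann cell markers summed to 38.4 and 88.7 CPM (*Ncam1* leading), adipocyte markers to 1.16 and 32.3 CPM with *Lep* at 0 in both, and mesothelial markers to 7.27 and 18.3 CPM with *Msln*, *Upk1b* and *Krt8* at 0 in both. Chondrocyte-like markers summed to 462 and 474 CPM, but their members differed in opposite directions. Of 3 past the filter 1 was at least 2-fold higher (2.34) and 1 lower (*Cytl1*, -5.14), which led in Control. The part of cells captured together and of free RNA in the gene ratios was not tested beyond the alternatives given under processing.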

How the data were processed

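The authors counted UMIs per gene and barcode with Cell Ranger (the file header gives 8.0.1, and the labels name mm10 while the study's methods name GRCm39) and deposited raw counts for 33696 genes without normalization. Counts of members were summed per library and given as CPM, and genes with a mean of at least 20 CPM were compared as log2 ratios, AngII+HS over Control. A difference was called at 2-fold or more, with no test, since each condition has 1 library. Genes without a Control UMI were bounded with 3 counts. Intervals are exact Poisson or Clopper-Pearson intervals at 95%. Lymphocytes served as background. They held at least 2 UMIs of CD3 chains, *Cd79a*, *Cd79b* or *Ms4a1*, together with *Ptprc*. They also held no *Pdgfra* and at most 1 UMI of *Pecam1* and *Cdh5*. *Myh11* was not limited in them. Smooth muscle markers summed to 5678 CPM in Control and 1705 CPM in AngII+HS lymphocytes, against 583 and 515 CPM in members. The lymphocyte level is thus a high bar for such genes, above all in Control.

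Named genes are the gate genes, the 15 highest and 15 lowest ratios at least 2-fold above the lymphocyte level, the 15 most abundant, the 12 highest over other fibroblasts, the 6 largest and 6 smallest gaps between both ratios, and per group the 2 highest, 2 lowest and 2 most abundant genes. The 12 were ranked by the smaller of their ratios over other fibroblasts in the 2 libraries. Marker genes named by abundance or absence, *S100a9* and *Hbb-bs* were chosen after their values were seen. The members and gene lists were chosen with earlier results of these data known. Doublets were kept in the main analysis and removed by Scrublet score (scanpy 1.11.5), at 0.8% per 1000 cells, as an alternative. The other alternatives were stricter cell filters and gates, a gate at 2000 UMIs, minima of 5 and 50 CPM, profiles with free RNA taken off, cells weighted equally and other scalings (TMM by edgeR 4.0.16). Python 3.11.15, numpy 2.4.6, scipy 1.17.1, pandas 2.3.3, matplotlib 3.10.9 and R 4.3.3 were used. Promoters are those of RefSeq on GRCm38.p6. No column of another sample was used. Some genes of the lists are not reported here.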

Additional observations from a re-analysis of the deposited data

Results flagged for a closer look

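Among the 12 genes with the widest gaps, 5 had a ratio between conditions of opposite sign in members and in the fibroblasts without *Pi16* or *Dpp4*, with counting intervals apart from 0 in both. Choosing genes for wide gaps favours opposite signs. Of the 6311 genes past the filter with a ratio in both classes 128 met this, 65 of them at least 2-fold above the lymphocyte level. The difference was not tested, since each condition has 1 library. The log2 ratio in members minus that in the others was 1.97 for *Dio2*, -3.02 for *Pdgfc*, -2.79 for *Cd55*, -2.23 for *Stxbp6* and -1.96 for *Emilin2*. *Pdgfc*, a platelet-derived growth factor, was at 26.8 and 18.8 CPM in members and 6.93 and 39.5 CPM in the others. *Stxbp6* was at 64.9 and 28.2 CPM in members and 20.8 and 42.4 CPM in the others, and the matrix gene *Emilin2* at 93.4 and 43.3 CPM and 17.3 and 31.2 CPM. Among members of 3000 to 8000 UMIs the ratio was -0.41 for *Cd55*, -0.23 for *Emilin2* and 0.44 for *Pdgfc*, while *Stxbp6* stood at -1.56 and *Dio2* at 0.33. Without the 5 highest members of each library *Pdgfc* was near level at 0.004. *Cd55* was then at -1.23, *Stxbp6* at -1.14, *Emilin2* at -1.02 and *Dio2* at 0.59.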

How the results depend on the processing

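The share of members among all cells and among gated fibroblasts (log2 ratios 0.07 and 0.10) turned to -0.36 and -0.57 with the gate at 2000 UMIs per cell, and to -1.18 and -1.16 when both *Pi16* and *Dpp4* were required (47 and 45 cells). With doublets removed the first was -0.05, within its counting interval. The counts of higher and lower genes (293 and 365) became 440 and 186 by TMM, 579 and 681 with both genes required, 564 and 775 at a minimum of 5 CPM and 158 and 197 at 50 CPM, minima that compare more and fewer genes. The lower count was 222 with equal weight per cell, 586 with free RNA subtracted (higher count 431; 464 and 298 without 1 member of each library, as below) and 214 among members of 3000 to 8000 UMIs, an alternative added after the data were seen. For the 30 genes at both ends of the order, 467 of 475 values under 16 alternatives stayed beyond 2-fold in the same direction, a tally that the choice of extreme genes favours. All 8 others came from requiring both genes. There *Sema3c*, the best counted of them, fell to -0.72 (314 and 162 UMIs), and *Tek* stood at -0.13 against -2.79 (44 and 34 UMIs). *1700019D03Rik* was at -0.47 (31 and 19 UMIs) and *Ntrk2* at -0.86 (15 and 7 UMIs). *Lcn2* at -0.50 against 4.72 rests on 5 and 3 UMIs, *Hhip* at -0.35 on 3 and 2 and *Lsamp* at -0.76 on 2 and 1, too few to compare. *Kcnj15*, the last of the 8, and *Saa3*, which is not among them, have no Control UMI there. Their ratios of at least 0.65 and 1.46 are lower bounds and show no fall. The cause was not tested. The median of 17 of 33 gene groups turned sign under at least 1 alternative. Of 762 values of 48 genes in all, 295 moved beyond their counting interval and 743 had the main sign. *Cilp*, *Hs3st1*, *Nkain4*, *Sbsn*, *Wnt2* and *Pdgfc* had values on both sides of 0. No paired analysis was possible because each condition has 1 library.
The data rest on 1 pool per condition, so differences between mice cannot be told apart from differences between conditions. Free RNA was estimated from leukocyte markers at 34.3% of Control and 12.1% of AngII+HS member UMIs. In Control 1 member held 568 of the 1059 leukocyte UMIs, and without the highest member of each library, an alternative added after the data were seen, the estimates were 15.9% and 11.5%. Mitochondrially encoded genes were then lower in 4 of 13 (median -0.88) and antigen presentation genes called in 0 of 5. Genes under 3 counts in both libraries cannot be compared at this depth.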
